A study of Rattus norvegicus with 32 samples.

Results

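Mitochondrial ribosomal proteins build the ribosome inside the mitochondrion, which translates the few proteins that mitochondrial DNA encodes, all of them core subunits of the respiratory chain and ATP synthase. The proteins themselves are encoded in the nucleus, made in the cytosol and imported. Those with the prefix Mrpl were named for the large subunit and those with the prefix Mrps for the small subunit. Some descend from proteins of the bacterial ribosome, and others are found only in mitochondria. The members described here were all genes whose symbol begins with Mrpl or Mrps and a digit and that had a probe set annotated with that symbol alone. There were 63 members, 40 Mrpl and 23 Mrps, among 14557 genes with a symbol on the array. Of 78 rat protein-coding genes with such symbols in RefSeq, 62 were members, and the others were not analysed here. The remaining member, Mrps11-ps1, is annotated as a pseudogene, and Mrps21l is a copy of a small-subunit gene. By known role, 33 members have a bacterial counterpart, 26 are found only in mitochondria, 2 (Mrps18a and Mrps18b) are paralogs within a bacterial family, and the pseudogene and the copy were not classed. Mrps18a and Mrps30 carry the small-subunit prefix but sit in the large subunit.

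The study disrupted the first coding exon of Csf1r, the receptor for the macrophage growth factor CSF1, in embryonic stem cells of Dark Agouti origin. The colony came from 1 targeted clone. Arrays covered Csf1r+/+, Csf1r+/- and Csf1r-/- adult female rats of mixed DA/SD strain, with 2 rats per genotype that had not been perfused. There were 2 arrays per genotype for hippocampus, striatum, olfactory bulbs, pituitary gland and spleen, and 2 arrays of bone marrow-derived macrophages (BMDM) from male DA rats, Csf1r+/+, grown in recombinant human CSF1. With 2 rats per genotype, arrays of different tissues share rats, but the labels do not tie a replicate number to a rat. Tests between tissues treated the arrays as independent, and p-values measure only the spread between these samples. The 24 brain and pituitary arrays and the 8 spleen and BMDM arrays had been normalized apart, so levels were compared only within each set. All values are log2 intensities, and a difference of 1 is a doubling. Where an array is named by tissue, genotype and number, WT stands for Csf1r+/+, HET for Csf1r+/- and KO for Csf1r-/-.

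Csf1r itself stood at 2.73 to 3.96 on the 8 Csf1r-/- brain and pituitary arrays and at 7.59 or more on the other 16. In spleen it stood at 10.37 and 10.18 in Csf1r+/+, 9.75 and 7.05 in Csf1r+/-, and 4.81 and 3.28 in Csf1r-/-. The 6 arrays labelled Olfactory bulbs carried anterior pituitary hormone genes (list mean 10.5 to 10.9, against 4.0 to 5.2 on the arrays labelled Pituitary gland), and the arrays labelled Pituitary gland carried olfactory bulb genes (8.9 to 9.2, against 4.9 to 5.6). The arrays keep their labels below, and each such result is one about the arrays so labelled. Genes of the choroid plexus stood at 9.7 on Hippocampus WT 2 and KO 2. Cortical genes stood at 7.2 on Striatum WT 2, 6.0 on KO 1 and 5.6 on HET 2. The other striatum arrays lay at 4.2 to 4.6. Olfactory mucosa genes stood at 6.9 on Pituitary gland KO 2, 4.6 on KO 1 and 5.2 to 6.2 on the rest so labelled. They lay at 3.0 to 3.3 on the arrays labelled Olfactory bulbs. The arrays later left out as carrying another tissue were Hippocampus WT 2 and KO 2, Striatum WT 2 and Pituitary gland KO 2. Each had such a list mean at least 1 log2 unit above the median of its labelled tissue. Arrays with smaller rises, such as Striatum KO 1 and HET 2, were kept, and the rule was not applied to spleen. Thymus genes stood at 8.8 on Spleen HET 2 and 9.0 on Spleen KO 2, where the other spleen arrays lay at 3.2 to 3.5. Spleen stroma genes (2 measured) stood at 3.04 on HET 2 and 3.24 on KO 2, and at 7.18 to 7.90 on the other spleen arrays. Erythroid genes stood at 2.89 and 3.41 on HET 2 and KO 2, and at 5.12 to 5.49 on the others. Each result for spleen is therefore one about the arrays so labelled. Pancreas genes stood at 8.42 on Spleen HET 1 and at 3.35 to 4.95 on the other 5. B-cell genes stood at 6.39 on Spleen HET 2 and 5.28 on Spleen KO 2 and at 9.45 to 9.74 on the other 4, and macrophage genes at 6.91 and 6.12 on those arrays, 7.04 on Spleen KO 1 and 8.53 to 8.79 on the other 3.

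All 63 members passed the filter, an intensity of at least 20 on 1 array, in both array sets. Mean log2 intensity over the 24 brain and pituitary arrays spanned 4.70 for Mrps11 to 9.14 for Mrps24, and over the 8 spleen and BMDM arrays 4.23 for Mrpl42 to 9.03 for Mrpl54. Probe sets differ in how strongly they bind, so members were not ranked against each other by level. Mrpl42 lay below the filter on 7 of the 24 brain and pituitary arrays, Mrps11 on 4, Mrpl44 on 3, Mrpl20 on 2 and Mrpl2 on 1. A further 3 probe sets, annotated as mrpl11, MRPL17 and mrpl24 in another spelling, did not match the rule, and their means over the same 24 arrays were 8.11, 8.30 and 6.02.

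Promoters of the members were examined next, because most members moved together between tissues (below), and short stretches with recognisable letters are shown here. RefSeq promoter windows (assembly GRCr8, 250 bases before to 50 after the annotated start, 300 in all, first listed window per gene) were found for 50 of the 63 members. The core CCGGAAG, bound by ETS factors such as GABP, stood on either strand of 16 of the 50 windows (32%), against 9.22% of all 27457 windows and 16.0% of the 8695 windows of genes tested in the brain set. The core AAGATGG, part of the YY1 site, stood in 11 of 50 (22%), against 7.30% and 7.95%. The core GCATGCGC, part of the NRF1 site, stood in 4 (8%), against 2.66% and 4.67%, and TATAAA in 7 (14%), against 14.3% and 8.46%. GABP, YY1 and NRF1 are known as activators of nuclear genes for mitochondria. In all, 25 of the 50 windows (50%) held at least 1 of the first 3 cores, against 25.6% of the tested genes' windows, and 4 held both the ETS and the YY1 core. The last 3 letters of the ETS core are the first 3 of the YY1 core, so the runs can overlap, and they did in 0 of those 4 windows. Against hippocampus, the median difference on the arrays labelled Olfactory bulbs was 0.90 for members with the ETS core and 0.83 without it. It was 0.66 and 0.89 for the YY1 core and 1.04 and 0.82 for the NRF1 core, and was not tested. A match is only a run of letters, and binding was not measured.

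The stretches below are those of the members with the largest difference between the arrays labelled Olfactory bulbs and Hippocampus among the members with each core. Capitals mark the core, on the strand of the gene, from 5′ to 3′.
Mrpl20, ETS, chr5:171691217-171691246 (+): ctagaggcgacCCGGAAGacagtgcttgca
Mrps18b, ETS reversed, chr20:2842992-2843021 (+): gcgcagtcgttCTTCCGGcaggccgtacgt
Mrpl53, ETS, chr4:117172976-117173005 (+): cccggaggccaCCGGAAGtctgtttcaata
Mrpl23, ETS, chr1:207116852-207116881 (+): tagcgcggcctCCGGAAGcgagggggcgct
Mrps18b, YY1, chr20:2843023-2843052 (+): ggatgtgcgacAAGATGGctgcctccttgc
Mrpl49, YY1, chr1:212779523-212779552 (-): ctgcaaccgcgAAGATGGagtcaagaaaga
Mrpl50, YY1, chr5:68668043-68668072 (-): ggagcttgtcgAAGATGGcggcgctgtgtg
Mrps18b, NRF1, chr20:2842977-2843006 (+): ccttgtccggcGCATGCGCagtcgttcttc
Mrpl44, NRF1, chr9:88554909-88554938 (+): gaagcacttgcGCATGCGCactatgctagt
Mrpl22, NRF1 reversed, chr10:42845870-42845899 (+): agcctcggactGCGCATGCgtgcaggcagc

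Mrps18b was the one member whose window held the ETS, YY1 and NRF1 cores together, with the NRF1 core starting 18 bases before the annotated start, the ETS core 3 bases before it and the YY1 core at base 29 after it. Position was shared too. An opposite-strand start lay within 1000 bases upstream, head to head, for 16 of the 50 members (32%), against 10.8% of all windows and 14.8% of the tested genes' windows. The distances ran from 44 bases (Mrpl27 with Eme1) to 996 (Mrpl41 with Pnpla7), with a median of 202. Mrpl46 and Mrps11, both members, faced each other over 234 bases on chromosome 1, and Mrpl47 faced Ndufb5, a subunit of respiratory complex I, over 244 bases on chromosome 2.

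Levels of the members differed between labelled tissues. The arrays labelled Olfactory bulbs and Pituitary gland were numbered in the deposit as a later block, apart from hippocampus and striatum. Between these blocks, tissue and any batch cannot be told apart. The median of the 63 members was 6.13 to 6.63 on the 6 hippocampus arrays and 6.36 to 6.46 on the 6 striatum arrays, 7.05 to 7.45 on the arrays labelled Olfactory bulbs and 6.65 to 7.09 on those labelled Pituitary gland. The median of all genes tested ran from 6.10 to 6.40, 6.28 to 6.35, 6.60 to 6.70 and 6.56 to 6.62 on the same arrays. Every array labelled Olfactory bulbs lay above every hippocampus and striatum array, and each of the 24 arrays had its members' median above that of all genes. By mean over the 6 arrays of a tissue, 53 of 63 members were highest on the arrays labelled Olfactory bulbs (84.1%, against 47.5% of all 10663 genes tested), 7 on those labelled Pituitary gland, 2 in striatum and 1 in hippocampus. The members that were not highest on the arrays labelled Olfactory bulbs were Mrpl3, Mrpl37, Mrpl4, Mrpl42, Mrpl47, Mrps2 and Mrps25 (labelled Pituitary gland), Mrpl34 and Mrps30 (striatum) and Mrpl45 (hippocampus).

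**Figure D1:**
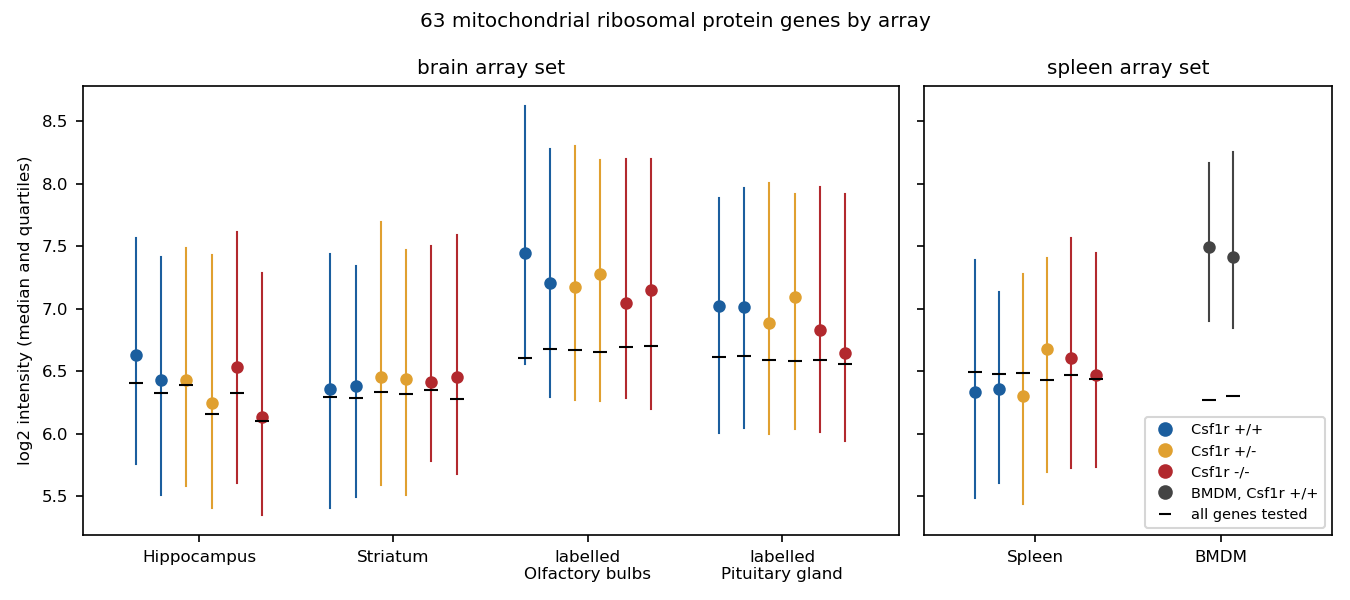
Median log2 intensity of the 63 members on each array (points) with their quartiles (lines), coloured by Csf1r genotype, beside the median of all genes tested (dashes), in the brain and spleen array sets. The members' median lay between 7.05 and 7.45 on the arrays labelled Olfactory bulbs and at 7.49 and 7.41 in BMDM, against 6.33 and 6.36 in Csf1r+/+ spleen.

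Tested with limma on the 24 arrays, 60 of 63 members differed in level between the 4 labelled tissues at an adjusted p under 0.05, where 90.1% of all genes did. The members that did not pass were Mrps2 (adjusted p = 0.121), Mrpl38 (0.210) and Mrps30 (0.420). Of the pairs of tissues, hippocampus and striatum were closest, with 7 members higher in striatum (13.2% of all genes were) and 1 lower (11.2% of all genes). The median difference was 0.07 for the members and 0.04 for all genes. Mrpl40 led the rises, by 0.41 ± 0.10 (SE, adjusted p = 0.00555). It stood at 6.90 to 7.12 in hippocampus and 7.09 to 7.69 in striatum. Mrpl36, the one member lower in striatum, differed by -0.34 ± 0.09 (adjusted p = 0.0144). Both counts moved with single arrays. Without the 4 arrays left out as carrying another tissue 1 member was higher and 2 lower, and 3, 1, 0 and 2 were higher without HET 1, HET 2, KO 2 and WT 2 of every tissue. Without KO 1 or WT 2, 0 were lower.

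Between the arrays labelled Olfactory bulbs and hippocampus, 55 members were higher (51.3% of all genes were) and 1 lower (27.1%). The median difference was 0.84 over the members and 0.33 over all genes. On 47 members all 6 arrays labelled Olfactory bulbs lay above all 6 hippocampus arrays, which held for 38.1% of all genes. Mrps33, a small-subunit protein found only in mitochondria, differed most. Its log2 intensity was 6.22, 6.33, 6.33, 6.11, 6.54 and 5.54 in hippocampus (WT 1, WT 2, HET 1, HET 2, KO 1, KO 2) and 8.70, 8.07, 8.23, 8.19, 7.83 and 7.76 in the same order on the arrays labelled Olfactory bulbs. The lowest of the second group lay more than 1 log2 unit above the highest of the first, and the difference was 1.95 ± 0.14 (SE, 3.86-fold, adjusted p = 2.85e-09). Mrps34, also small-subunit and found only in mitochondria, had means of 4.94 ± 0.37 (SD, n = 6) in hippocampus and 6.66 ± 0.17 on the arrays labelled Olfactory bulbs, a 3.30-fold difference. For Mrpl20, a large-subunit protein with a bacterial counterpart, the means were 4.40 ± 0.18 and 6.08 ± 0.29 (3.22-fold), with 2 of the 6 hippocampus arrays below the filter. Mrps18b rose from 6.06 ± 0.34 to 7.66 ± 0.15 (3.03-fold), and Mrpl53, Mrpl23 and Mrps14 differed by 1.55, 1.54 and 1.53. The next in order were Mrpl28 (1.40), Mrps16 (1.29) and Mrps35 (1.24). Mrps33 and the higher members named after it were picked by the size of this same difference, so gaps between their groups are only a description. The one lower member was Mrpl45, which in the large subunit sits near the tunnel exit where the ribosome meets the inner membrane. It stood at 7.45 ± 0.13 and 7.17 ± 0.11, a difference of -0.28 ± 0.12 (adjusted p = 0.0364). Over the alternatives its adjusted p ran from 0.000865 to 0.157. It missed the threshold without the 4 arrays left out as carrying another tissue and without HET 1, KO 1, KO 2, WT 1 or WT 2 of every tissue.

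The arrays labelled Pituitary gland lay between these groups. Against hippocampus 46 members were higher (43.4% of all genes were) and 2 lower (18.6%), with a median difference of 0.55 against 0.22 for all genes. Mrpl20 (1.26 ± 0.11) and Mrpl47 (1.22 ± 0.09), both with bacterial counterparts, differed most. Mrpl47 stood at 6.64 to 7.29 in hippocampus and 8.04 to 8.34 on the arrays labelled Pituitary gland, with no overlap. Mrpl34 went the other way, from 8.87 ± 0.06 (SD, n = 6) in hippocampus and 8.89 ± 0.05 in striatum to 8.01 ± 0.22 (-0.86 against hippocampus, adjusted p = 5.82e-06), and every array labelled Pituitary gland was below every hippocampus array. Mrpl47 and Mrpl34 were picked by the size of this same difference, so the lack of overlap in each is only a description. Mrpl45 was also lower (-0.33 ± 0.12, adjusted p = 0.0224, and 0.00178 to 0.167 over the alternatives), and 1 member was lower without HET 1, KO 1, KO 2 or WT 1. Against striatum, 46 members were higher (42.0% of all genes) and 1, Mrpl34, lower (19.4%) on these arrays, with Mrpl20 higher by 1.04. On 5 of the 6 striatum arrays Mrpl42 was below the filter, and set against the filter it was at least 1.02 higher. Without HET 2 of every tissue 2 were lower.

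Against striatum the arrays labelled Olfactory bulbs had 54 members higher (50% of all genes) and 0 lower (27.7% of all genes), as tested with limma. Of the 5 members with a difference below 0, none reached an unadjusted p under 0.05, a count of 0, although 1 member was lower without HET 1, HET 2 or WT 1 of every tissue. Mrps33 (1.94), Mrps34 (1.73) and Mrps18b (1.54) again led the higher members. Between the 2 groups of arrays whose tissue genes are crossed, 5 members were higher on the arrays labelled Pituitary gland (27.8% of all genes) and 41 lower (39.8%), with medians of -0.37 for the members and -0.12 for all genes. The 5 were Mrps25 (1.04 ± 0.12), Mrpl4 (0.45), Mrpl37 (0.41), Mrpl3 (0.29) and Mrps2 (0.29), and 2, 3 and 3 members were higher without HET 2, KO 1 and WT 1. Mrps25 stood at 5.11 to 5.78 on the arrays labelled Olfactory bulbs, 5.21 to 6.0 in hippocampus, 5.33 to 5.91 in striatum and 6.18 to 6.64 on the arrays labelled Pituitary gland, so its highest group was not that of most members. Cell-cycle genes, whose list mean was 4.3 to 4.6 in hippocampus, 4.2 to 4.9 in striatum and 4.7 to 4.9 on the arrays labelled Pituitary gland, stood at 5.4 to 7.4 on the arrays labelled Olfactory bulbs. Their part in the members' difference was not tested.

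**Figure D2:**
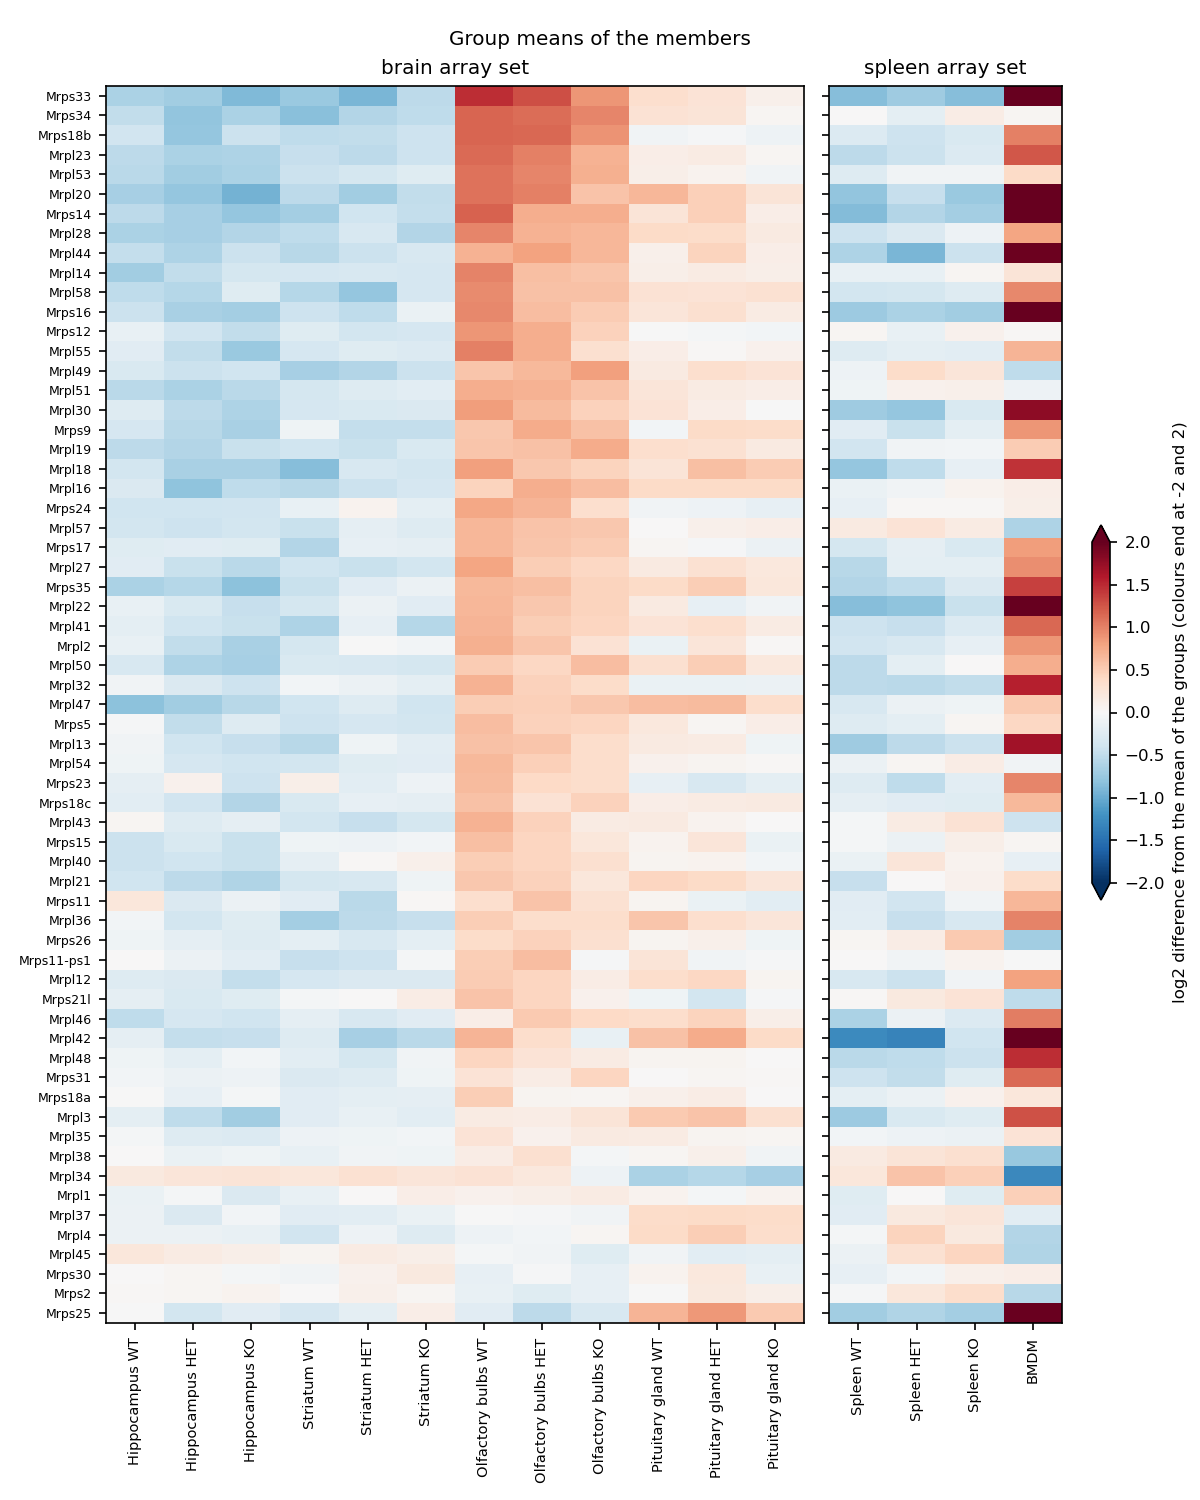
Mean log2 intensity of each member (rows, ordered by level on the arrays labelled Olfactory bulbs relative to the other groups) in each group of 2 arrays (columns), as the difference from the member's mean over the groups of its array set. Most rows are high in the columns labelled Olfactory bulbs and many in BMDM, Mrpl34 and Mrpl45 are high in neither, Mrps25 is high in BMDM and in the columns labelled Pituitary gland, and colours end at 2 in either direction.

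Deviations over the 24 arrays showed which members kept with the rest. The correlation of a member with the median of the others, a description over arrays that share tissue and genotype, had a median of 0.89, and 45 of 63 members reached 0.8. The share over all genes was not computed, and 47.5% of all genes were also highest on the arrays labelled Olfactory bulbs. The members least like the rest were Mrpl45 (r = -0.49), Mrps2 (-0.31), Mrpl34 (-0.27), Mrps30 (-0.21) and Mrps25 (0.10). With each tissue's mean taken out, the median fell to 0.57 and those members had 0.39, 0.33, 0.37, 0.28 and 0.49, all above 0. Mrps30, which has no bacterial counterpart, stood at 7.50 ± 0.25, 7.56 ± 0.17, 7.37 ± 0.16 and 7.54 ± 0.17 (SD, n = 6) in hippocampus, in striatum and on the arrays labelled Olfactory bulbs and Pituitary gland.

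Symbol prefix and ancestry were compared by medians, with no test. The prefix is not the subunit, as the Mrps members include Mrps18a and Mrps30 of the large subunit, the pseudogene and the copy. Against hippocampus the median difference on the arrays labelled Olfactory bulbs was 0.90 over the 40 Mrpl and 0.81 over the 23 Mrps members, and 0.92 over members with a bacterial counterpart and 0.80 over those found only in mitochondria. On the arrays labelled Pituitary gland the Mrpl median was 0.61 and the Mrps median 0.31. There 33 of 40 Mrpl and 13 of 23 Mrps members were higher, as were 43.4% of all genes. Among the 3 paralogs that occupy different places on the ribosome, Mrps18b differed by 1.60 (adjusted p = 7.05e-09), Mrps18c by 0.83 (1.82e-06) and Mrps18a by 0.26 (0.0328) between the arrays labelled Olfactory bulbs and hippocampus. Mrpl12, which is also known to bind the mitochondrial RNA polymerase, differed by 0.70 ± 0.09, and Mrps12, part of the decoding centre, by 1.03 ± 0.13. The head-to-head pair Mrpl46 and Mrps11 differed by 0.77 and 0.46.

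Between Csf1r genotypes no member passed the threshold with all arrays in the fit. In the brain set taken as a whole, each genotype and number was averaged over the 4 labelled tissues. Such a mean may mix rats, because the labels do not tie a number to a rat. Between Csf1r-/- and Csf1r+/+ limma called 0 of 63 members (1.16% of all genes were called), and 2 of 63 had an unadjusted p under 0.05 (9.42% of all genes did). The methods' t-test called 0, with 6 at an unadjusted p under 0.05 (6.93% of all genes). The median difference was -0.09 over the members and -0.01 over all genes, and 17 of 63 lay above 0, as did 45.3% of all genes. Leaving out 1 replicate number of a genotype moved the members' median to -0.15 (KO 1), -0.03 (KO 2), -0.03 (WT 1) and -0.15 (WT 2). Then 7 to 26 members lay above 0, as did 37.1% to 56.4% of all genes. The smallest p belonged to Mrpl42 (-0.40 ± 0.13, adjusted p = 0.376) and Mrpl20 (-0.30 ± 0.11, 0.449). For Mrpl12 the difference was -0.20 ± 0.09. Csf1r+/- rats had 0 members called (0.0% of all genes), 0 at an unadjusted p under 0.05 (3.29% of all genes), and a median of -0.04, which ran from -0.10 without HET 1 to 0.01 without WT 1. Genes of microglia and macrophages had list means of 3.03 to 3.73 on the 8 Csf1r-/- arrays and 6.40 to 7.69 on the other 16, with no overlap. In array values of bulk tissue alone, fewer cells of a type and less RNA per cell cannot be told apart. The paper reports no microglia in Csf1r-/- brain by staining or by flow cytometry, while macrophages of the choroid plexus remained.

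Single tissues gave the same count. In hippocampus 0 members were called (0.61% of all genes) and 4 had an unadjusted p under 0.05 (8.67% of all genes), with Mrpl3 first (6.63 and 6.62 in Csf1r+/+, 6.31 and 5.93 in Csf1r-/-, adjusted p = 0.315). The median of -0.19 stood beside -0.13 for all genes and was 0.02 without Hippocampus KO 2, -0.34 without KO 1 and -0.07 without WT 1, with 0 called by limma each time. In striatum 0 were called (0.685%) and 2 had an unadjusted p under 0.05 (6.85%), led by Mrps25 (5.33 and 5.53 in Csf1r+/+, 5.90 and 5.91 in Csf1r-/-, adjusted p = 0.661). Here 51 of 63 members lay above 0 (56.7% of all genes did), with a median of 0.10 against 0.04 (0.07 without Striatum WT 2). On the arrays labelled Pituitary gland 0 were called (0.938%) and 0 had an unadjusted p under 0.05 (6.11%), and the median was -0.11 against -0.02. It was -0.05 without Pituitary gland KO 2, where olfactory mucosa genes were highest, and -0.07 without WT 2. The methods' t-test called 0 members in each of these tissues, with 5, 3 and 7 at an unadjusted p under 0.05, as 4.45%, 7.25% and 8.41% of all genes had.

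On the arrays labelled Olfactory bulbs the medians of the members and of all genes lay on opposite sides of 0. Of 63 members 0 were called with limma (1.81% of all genes were) and 15 had an unadjusted p under 0.05 (14.2% of all genes), and the methods' t-test called 0, with 4 at an unadjusted p under 0.05 (8.04% of all genes). The median difference was -0.23 over the members and 0.05 over all genes, and 12 of 63 lay above 0, as did 56.3% of all genes. Their medians by array were 7.45 and 7.20 in Csf1r+/+, 7.17 and 7.27 in Csf1r+/-, and 7.05 and 7.14 in Csf1r-/-. Both Csf1r-/- arrays were below the other 4, and the Csf1r+/+ array WT 1 was above all. Mrpl55, found only in mitochondria, had the smallest p. It stood at 7.32 and 6.86 in Csf1r+/+, 7.06 and 6.56 in Csf1r+/-, and 6.57 and 6.23 in Csf1r-/-, a difference of -0.69 ± 0.22 (adjusted p = 0.144). Mrpl42 stood at 6.01 and 4.87, 5.40 and 4.84, and 4.59 and 4.65, a difference of -0.82 ± 0.30 (adjusted p = 0.213). For Mrpl55 HET 2 lay level with KO 1, and for Mrpl42 WT 1 stood well above WT 2.

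The median of the members there varied with the Csf1r+/+ array used. Of the 6 arrays labelled Olfactory bulbs WT 1 held the highest value for 41 of 63 members, where it did so for 21.1% of all genes, and leaving it out moved the median from -0.23 to -0.12, while leaving out WT 2 moved it to -0.38 and brought 2 members (3.17%) past the threshold, where 3.62% of all genes passed. Mrps18a stood at 9.67 on WT 1 and 9.01 on WT 2, Mrps33 at 8.70 and 8.07. The list of cytosolic ribosomal proteins, those of the other ribosome of the cell, had a median of -0.34 in the same comparison, with 1 of 121 called. The respiratory chain and ATP synthase genes had -0.23, with 0 of 72 called. Of all genes 1.81% were called in this comparison. Both lists include copies and pseudogenes. The difference between tissues in the effect of Csf1r loss was called for 0 members (0.15% of all genes), as an F test in limma, and 2 (Mrps9 and Mrpl58) had an unadjusted p under 0.05 (8.23% of all genes).

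**Figure D3:**
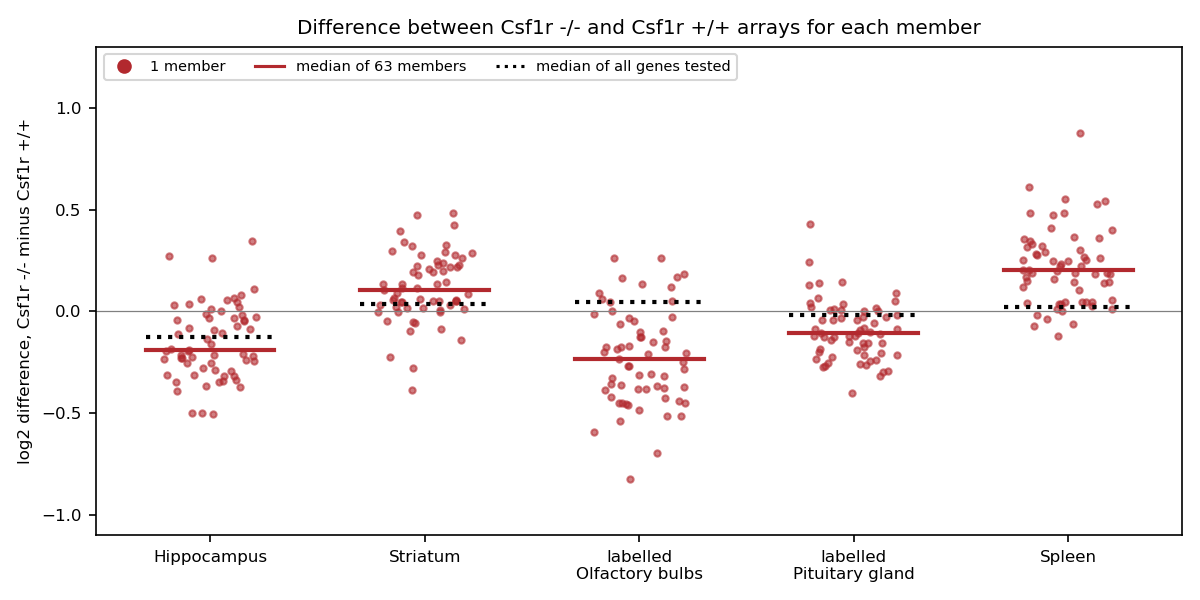
Log2 difference between Csf1r-/- and Csf1r+/+ arrays for each of the 63 members (points) in each labelled tissue, with the median of the members (solid) and of all genes tested (dotted). The members' median was -0.23 on the arrays labelled Olfactory bulbs, where all genes had 0.05. It was 0.20 on those labelled Spleen, where all genes had 0.02, and 0 members passed the test in any column.

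On the arrays labelled Spleen the shift ran upward. Members had a median difference of 0.20 between Csf1r-/- and Csf1r+/+ against 0.02 for all genes, and 58 of 63 lay above 0, as did 52.3% of all genes. With limma 0 were called (0.0106% of all genes) and 1 had an unadjusted p under 0.05 (6.62% of all genes), and the methods' t-test called 0, with 5 at an unadjusted p under 0.05 (4.15% of all genes). Mrpl42 had the smallest p, with log2 intensities of 2.88 and 3.02 in Csf1r+/+, 3.00 and 2.80 in Csf1r+/-, and 3.59 and 4.06 in Csf1r-/-. All 6 lay below the filter, and the adjusted p was 0.715. Without Spleen KO 1, which left KO 2 with its thymus genes as the Csf1r-/- array, 2 members were called, 3.17% of them, where 22.6% of all genes were. Mrpl50 stood at 5.60 and 5.86 in Csf1r+/+, 5.78 and 6.33 in Csf1r+/-, and 6.37 and 6.15 in Csf1r-/- (0.53 ± 0.22, adjusted p = 0.745). Mrpl45, at 7.55 and 7.72, 7.82 and 8.30, and 7.99 and 8.38, differed by 0.55 ± 0.23. For Mrpl50 and Mrpl45 both Csf1r-/- arrays were above both Csf1r+/+ arrays, and HET 2 lay between the Csf1r-/- arrays. The members' median was 6.33 and 6.36 in Csf1r+/+, 6.30 and 6.68 in Csf1r+/-, and 6.60 and 6.47 in Csf1r-/-. HET 2 and KO 2 are the arrays with thymus genes and low spleen stroma genes. Their cell-cycle list means were 8.9 and 8.8, where KO 1 had 7.4 and the other 3 spleens 6.7 to 6.9. Against the Csf1r+/+ mean the members' median was 0.18 on KO 1, which carried no thymus genes (3.5), and 0.23 on KO 2. The part of cell cycle and thymus in the shift was not tested.

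Macrophages were then compared with whole spleen. In BMDM 39 members were higher than in Csf1r+/+ spleen (25.9% of all genes were) and 5 lower (36.4%), as tested with limma on 4 arrays. The median difference was 0.90 over the members and -0.20 over all genes. BMDM were from male DA rats and spleens from females of mixed strain, so sex, strain, culture and cell type cannot be told apart. Mrpl42, found only in mitochondria, stood at 2.88 and 3.02 in spleen, below the filter, and at 6.98 and 7.49 in BMDM. Set against the filter in place of the spleen level, it was at least 2.92 log2 units higher. Mrps33 stood at 5.54 and 5.74 in spleen and 9.13 and 8.71 in BMDM, a difference of 3.28 ± 0.22 (9.70-fold, adjusted p = 0.000104). Mrps14, which has a bacterial counterpart, stood at 6.55 and 6.50 against 9.54 and 9.52 (3.00 ± 0.18, 8.01-fold). Mrpl22 (7.72-fold), Mrps16 (6.94-fold), Mrpl20 (6.85-fold), Mrps25 (6.35-fold), Mrpl44 (5.94-fold), Mrpl30 (5.65-fold) and Mrpl13 (5.24-fold) followed, and Mrpl30 was 3.62-fold higher with its 2 probe sets averaged. These members were picked by the size of this same difference, so both BMDM arrays lying above both spleen arrays in each is only a description.

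The 5 lower members were Mrpl34 (8.69 and 8.33 in spleen, 7.06 and 6.94 in BMDM, -1.51 ± 0.21, adjusted p = 0.00127), Mrpl38 (-0.94), Mrpl57 (-0.80), Mrps26 (-0.73) and Mrps21l (-0.53). The count of lower members was 1 without Spleen WT 1 and 2 without Spleen WT 2. Mrpl34 was lower in BMDM than in spleen and lower on the arrays labelled Pituitary gland than in each other group of the brain set. Mrps12 differed by -0.01 ± 0.19 and Mrps30 by 0.30 ± 0.21 (adjusted p = 0.981 and 0.251), while Mrpl12 was higher by 1.12 ± 0.19 (adjusted p = 0.00264). Members with a bacterial counterpart had 24 of 33 higher and 1 lower (median 1.11), and members found only in mitochondria 14 of 26 higher and 3 lower (median 0.79). Of all genes 25.9% were higher and 36.4% lower. The Mrpl median was 1.03 and the Mrps median 0.82. Mrpl46 and Mrps11 were both higher, by 1.65 and 0.89. B-cell genes had list means of 9.6 and 9.4 in Csf1r+/+ spleen and 3.4 and 3.8 in BMDM, and cell-cycle genes 6.9 and 6.7 against 8.0 and 8.3. Their part in the members' difference was not tested. Across the 63 members the difference between BMDM and spleen went with that between the arrays labelled Olfactory bulbs and hippocampus at r = 0.40, and over 8527 genes at r = 0.11. For the arrays labelled Pituitary gland against hippocampus the values were r = 0.53 and r = 0.07. The BMDM and spleen arrays were distinct from the brain and pituitary arrays, and genes are not independent replicates.

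**Figure D4:**
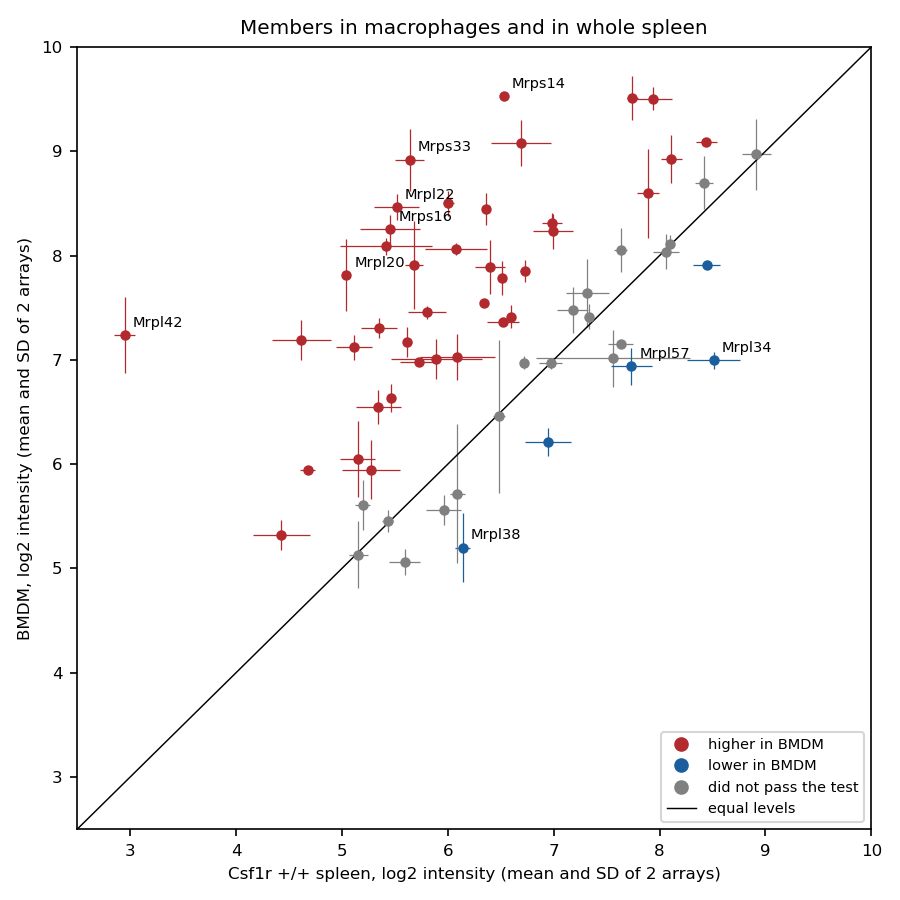
Log2 intensity of each member in Csf1r+/+ spleen (horizontal) and in BMDM (vertical), as mean and SD of 2 arrays, with the line of equal levels and colours for members that passed the test. Most points lie above the line, with Mrpl42 and Mrps33 farthest, and Mrpl34 lies farthest under it.

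Other genes of mitochondrial translation were counted in the same fits. Of all genes, 51.3% were higher and 27.1% lower on the arrays labelled Olfactory bulbs than in hippocampus, and each count below stands beside these shares. On the arrays labelled Olfactory bulbs against hippocampus, 6 of 6 genes of a list that held Oxa1l, an insertase, and mitochondrial ribosomal proteins under other symbols were higher, among them Aurkaip1 (1.31), Gadd45gip1 (0.94), Dap3 (0.80) and Ptcd3 (0.22). Of 7 translation factors 4 were higher and 2 lower, with Mrrf, the ribosome recycling factor, at 1.63 and Gfm2, a recycling GTPase, at -0.56. Of 11 mitochondrial aminoacyl-tRNA synthetases, which charge the tRNAs, 8 were higher and 1 lower, and of 18 genes of ribosome assembly and mitochondrial RNA 13 were higher and 3 lower. Cytosolic ribosomal proteins, a list that includes copies and pseudogenes, had 94 of 121 higher and a median of 1.36, above the members' 0.84. The respiratory chain and ATP synthase, which house the products of the mitochondrial ribosome, had 40 of 72 higher and 19 lower (median 0.32), and the citric acid cycle 6 of 13 higher and 4 lower (median 0.07).

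BMDM and spleen divided these lists otherwise. Of all genes, 25.9% were higher in BMDM and 36.4% lower. Of the 11 synthetases 1 was higher and 8 lower (median -0.83), among them Sars2 (-1.72) and Aars2 (-1.67), while Yars2 was higher (1.17). Assembly and RNA genes had 4 of 18 higher and 6 lower (median -0.38), with Slirp, which stabilises mitochondrial mRNA, at 2.55 and Mtg2, a GTPase of the large subunit, at -1.82. Gadd45gip1 (2.27) and Chchd1 (1.92), ribosomal proteins under other symbols, were higher, and Oxa1l, the insertase at the ribosome's exit (-1.96), and Dap3 (-0.65) were lower. The respiratory chain and ATP synthase had 42 of 68 higher and 8 lower (median 1.41), and cytosolic ribosomal proteins 58 of 124 higher and 10 lower (median 0.66). Whether the members differed from any of these lists was not tested.

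**Figure D5:**
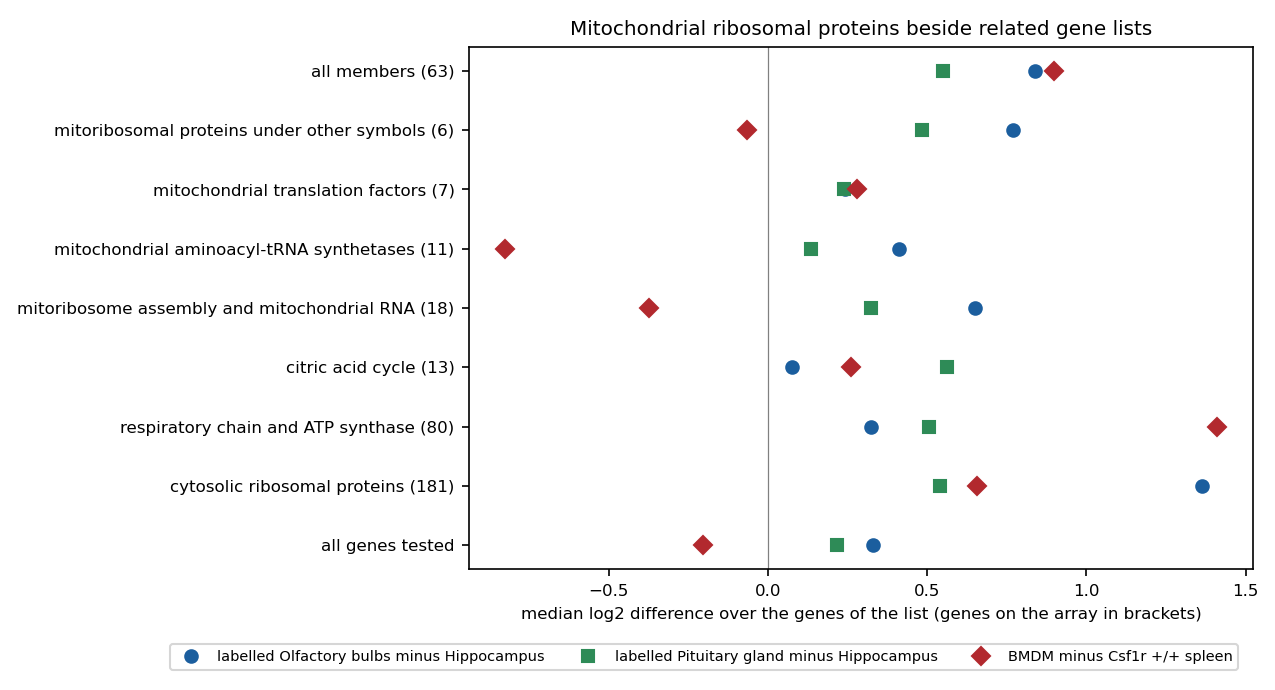
Median log2 difference of the members and of 7 related gene lists in 3 comparisons, with all genes tested in the last row. The list of ribosomal proteins under other symbols includes Oxa1l, an insertase. The members' medians were 0.84, 0.55 and 0.90, and the aminoacyl-tRNA synthetases stood at 0.41, 0.14 and -0.83.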

How the data were processed

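RNA of 32 samples was hybridised to Affymetrix Rat Gene 2.1 ST arrays. The authors normalized the arrays by RMA in R/Bioconductor (versions not given in the sources used here). They deposited linear intensity values of 36685 probe sets, which were converted to log2 here. Of these probe sets, 14824 carried a single symbol, 829 several and 21032 none. Where a symbol had more than 1 probe set, the brighter was used in each array set. Testing required an intensity of 20 on any array, which left 10663 genes in the brain set, 9397 for Csf1r loss in spleen and 9081 for BMDM. Groups were tested in R 4.3.3 by limma 3.58.1, tried on simulated data first, and p-values were adjusted after Benjamini-Hochberg across every gene tested, at a threshold of 0.05.

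The brain fit held 12 groups on 24 arrays. The fit over the whole brain set held 6 means over the labelled tissues, by genotype and replicate number. Csf1r loss in spleen was fitted on 6 arrays (Csf1r+/+ and Csf1r-/- spleen with BMDM) and BMDM against spleen on 4. The rule for members named with values took the 10 largest rises and falls among those called (the 5 smallest p where fewer than 5 were), the 5 highest and 5 lowest levels, the 5 members least like the rest and those of known special place, and the text gives a selection of them. Members and lists were chosen with earlier results of these data known. Alternatives were other filters (none, or 50), averaged probe sets, trend and robust variance, repeated quantile normalization, leaving out replicates or the arrays carrying another tissue, a replicate block, littermates as reference, other sets of arrays and the methods' t-test. Scripts were run on Python 3.11.15, with matplotlib 3.10.9 for figures.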

Additional observations from a re-analysis of the deposited data

Results flagged for a closer look

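Of 315 sets of 6 arrays (a member in a labelled tissue), 26 (8.25%) had 1 array far from the other 5, as did 6.06% of such sets over all genes, where chance gives about 1 in 20. Of these, 12 lay on the array labelled Olfactory bulbs WT 1. It was far above the others for Mrpl14 (6.80), Mrpl22 (6.66), Mrpl27 (8.77), Mrpl36 (6.51), Mrpl41 (9.22), Mrpl57 (8.61), Mrpl58 (8.75), Mrps14 (8.83), Mrps18a (9.67) and Mrps23 (7.15), and far below them for Mrpl16 (7.78) and Mrpl46 (6.16). Over all genes that array was far above the others for 2.11% and far below for 3.82%. On Olfactory bulbs HET 1, Mrps11 was far above (5.66). On the arrays labelled Pituitary gland, KO 2 was far below for Mrpl19 (5.95), Mrps18a (8.77) and Mrps34 (5.48), WT 1 was far below for Mrps18c (8.49), and WT 2, HET 1 and HET 2 were far above for Mrpl35 (8.53), Mrpl4 (9.64) and Mrpl44 (5.60). In hippocampus HET 1 was far below for Mrpl44 (4.15) and far above for Mrps15 (7.16). In striatum WT 2 was far below for Mrpl4 (8.43) and KO 2 far above for Mrps21l (8.96). In spleen KO 1 was far above for Mrpl30 (6.92) and Mrps15 (7.72). On each of these arrays other than Olfactory bulbs WT 1, 0.122% to 0.853% of all genes lay far to the same side.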

How the results depend on the processing

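No alternative turned the direction of a called result. Under repeated quantile normalization the members' median was 0.70 between the arrays labelled Olfactory bulbs and hippocampus and 1.11 between BMDM and spleen. The median of all genes moved from -0.20 to -0.09 in the latter and from -0.13 to -0.02 between Csf1r-/- and Csf1r+/+ hippocampus, where the members' median moved from -0.19 to -0.05. That setting gave 2 members lower in striatum than in hippocampus, 3 lower on the arrays labelled Olfactory bulbs than in hippocampus, 3 than in striatum, and 3 lower on those labelled Pituitary gland than in striatum. The last count was 2 with the filter at 50 and 2 with trend and robust variance. Without the filter 3 members were higher in striatum than in hippocampus. Without the arrays left out as carrying another tissue 1 was higher and 2 lower. With all 8 arrays 3 were lower in BMDM.

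Leaving out 1 replicate gave 0 to 2 members called for Csf1r loss on the arrays labelled Olfactory bulbs, and 0 to 2 in spleen. It gave 0 to 6 higher and 0 to 1 lower in striatum against hippocampus, 0 to 1 lower on the arrays labelled Olfactory bulbs against hippocampus and 0 to 1 against striatum, 1 to 2 lower on those labelled Pituitary gland against hippocampus and 1 to 2 against striatum, 2 to 5 higher on them against those labelled Olfactory bulbs, and 1 to 5 lower in BMDM. Replicate numbers were not taken as pairs between genotypes. The fit over the whole brain set did average arrays of different tissues by number, as leaving out a number of every tissue also links them. Correlations of same-numbered deviations between genotypes ran from -0.27 (striatum, WT and KO) to 0.83 (spleen, HET and KO, where both arrays numbered 2 carry thymus genes), with 0.45 in hippocampus (WT and KO, where both numbered 2 carry choroid plexus genes). With a replicate block 0 members were called for Csf1r loss, 55 were higher on the arrays labelled Olfactory bulbs than in hippocampus, and 1 was lower than in striatum, against 0 without the block. For named members 1393 values kept direction and side of the threshold, 81 lost the call and 2 gained it. The cause was not tested, and 2 arrays per group limit the precision.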
